A study of Homo sapiens with 15 samples.

Results

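The 2 H3K4ox libraries were made from MDA-MB-231, a widely used human cell line derived from a triple-negative breast tumour, and are described by how their peaks lie next to each other. All peaks on chromosomes 1 to 22 were taken, which were 247720 of the 252459 peaks listed for replicate 1 and 242310 of the 246967 listed for replicate 2 (98.1% of each). The series held 15 samples, of which 4 had a peak list with 647617 peaks in all, and 11 were not analysed here. Both libraries came from chromatin of sonicated nuclei, precipitated with an antibody described as handmade, and their labels name no treatment or knockdown. They belong to 1 group with no control group, so no contrast over samples could be tested. Whether each library had its own culture is not stated, and the spread between the 2 may be only technical. Values are given for each library alone, and a mean with its SD has n = 2. Sequencing depth was unknown, because the lists hold peaks and no reads. Peaks are not replicates, so the only spread between samples is that between the 2 libraries.

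H3K4ox is histone H3 whose lysine 4 has lost its side-chain amine to oxidation. The enzyme named in the title of the series, LOXL2, is a copper-dependent lysyl oxidase best known for cross-linking collagen and elastin outside the cell, and it also acts on lysine 4 of histone H3 in the nucleus. Methylation of the same lysine is a well-known mark of active promoters and enhancers, and the series title links LOXL2 to chromatin compaction. A histone mark can lie in isolated islands or in long domains of many adjacent nucleosomes. The gaps between called peaks describe the spacing of a list, and do not show whether weaker signal lay between the peaks.

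H3K4ox peaks lay close together in both libraries. In replicate 1 the median gap from the end of a peak to the start of the next was 3.928 kb, and in replicate 2 it was 4.004 kb. The mean gaps were longer, at 10.2 kb and 10.5 kb. Gaps spread over a wide range: the shortest 10% were at most 0.33 kb in both libraries, and the longest 10% were over 25.4 kb in replicate 1 and 26.2 kb in replicate 2. Measured to the nearer of its 2 neighbours, a peak lay at a median of 1.725 kb from another in replicate 1 and 1.73 kb in replicate 2. No peaks of a list overlapped. Gaps of 100 bp or less numbered 8854 in replicate 1 and 8530 in replicate 2, or 3.57% and 3.52% of all gaps. These counts were higher than in any later step of 100 bp up to 3 kb. Whether peaks placed at random would give fewer was not tested. The 3 longest stretches without a peak lay at the same places in both lists, with ends that differed by a few kb at most. Whether reads could be placed in these stretches was not examined, so their shared places are no measure of agreement between the libraries. In replicate 1 they lay on chromosome 1 from 121345051 to 142535284, on chromosome 9 from 47313596 to 65467941 and on chromosome 16 from 35283969 to 46444397 (positions in hg19, counted from 1).

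**Figure D1:**
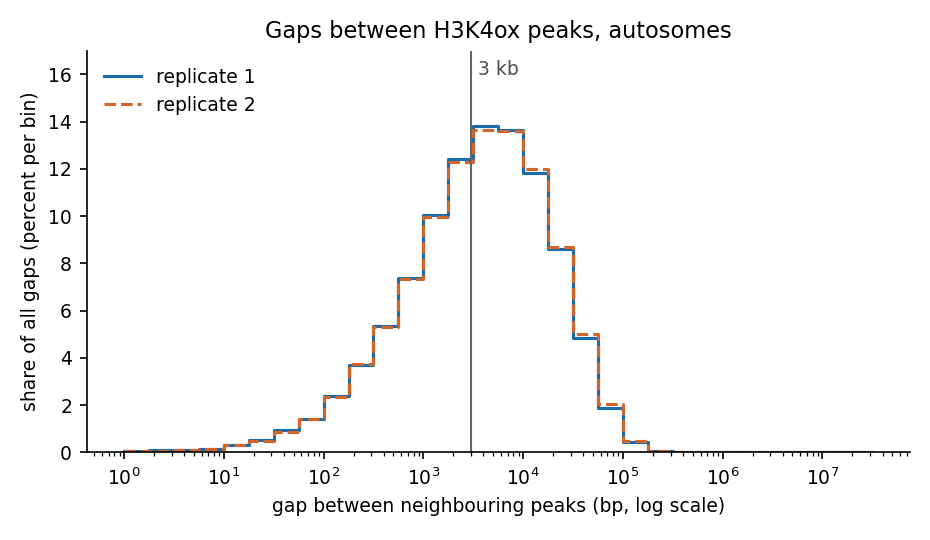
Share of all gaps between neighbouring H3K4ox peaks (percent per bin, y axis) against gap length in bp (log scale, x axis), with a solid line for replicate 1 and a dashed line for replicate 2. The vertical line marks 3 kb, and 43.7% of gaps of replicate 1 and 43.3% of replicate 2 were at most that long.

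Short gaps followed short gaps. Over 247676 pairs of successive gaps in replicate 1 the Spearman correlation was 0.28, and over 242266 pairs in replicate 2 it was 0.27. These pairs share a peak and a library and are not independent, so the values are descriptions. Within windows of 1 Mb with at least 20 gaps, the SD of the gaps divided by their mean had a median of 1.19 in replicate 1 (2675 windows) and in replicate 2 (2672 windows). This ratio is 0 for even spacing and near 1 for points placed at random. Its 10th percentile was 0.96 and 0.97 and its 90th percentile 1.52 and 1.53. The median window thus lay above the value of random placement, and windows at the 10th percentile lay near it. The distance from random placement was not tested.

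Most H3K4ox peaks belonged to clusters, defined as runs of at least 2 peaks with gaps of at most 3 kb. In replicate 1, 156618 peaks (63.2%) fell into 48447 clusters, and 91102 peaks were single. In replicate 2, 152758 peaks (63.0%) fell into 47867 clusters, and 89552 were single. The mean share in clusters was 63.1% ± 0.13 (SD, n = 2). Both libraries therefore gave nearly the same split between clustered and single peaks.

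The clusters covered 295.4 Mb in replicate 1 and 282.6 Mb in replicate 2, or 10.6% and 10.1% of the span between the outermost peaks of the autosomes. A cluster had a median length of 4291 bp in replicate 1 and 4193 bp in replicate 2, and the mean number of peaks in it was 3.23 and 3.19. Pairs made up 56.5% of clusters in replicate 1 and 57.4% in replicate 2. Peaks covered a median of 58.6% and 58.3% of a cluster's length, so that gaps took up the rest.

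A small number of clusters were long runs of peaks, and single ones are called domains below. Clusters of at least 10 peaks numbered 1396 in replicate 1 and 1329 in replicate 2, held 8.61% and 8.29% of all autosomal peaks, and spanned 45.8 Mb and 42.5 Mb. Those of at least 20 peaks numbered 246 and 228, and held 2.77% and 2.53% of the peaks. Gaps were shorter inside the clusters with the most peaks. The median gap was 1038 bp in pairs of replicate 1, 1045 bp in its clusters of 4 to 5 peaks and 593 bp in those of 20 or more. In replicate 2 it was 1002 bp, 1062 bp and 602 bp. Peaks of the largest class were also wider, with medians of 1141 bp and 1100 bp against 848 bp and 831 bp in pairs.

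The cluster with the most peaks in replicate 1 lay on chromosome 19 from 7117480 to 7303840 (hg19). It held 86 peaks in 186.4 kb, and its peaks covered 63.3% of its length. In the same interval replicate 2 held 89 peaks, arranged in 3 clusters. The cluster was interrupted in replicate 2 at 2 gaps of 4263 bp and 4026 bp, over the limit of 3 kb, where the longest gap of replicate 1 in the interval was 2984 bp. Median gaps there were 463 bp in replicate 1 and 511 bp in replicate 2. Scores in the interval ranged from 51.5 to 791.7 with a median of 139.1 in replicate 1, and from 51.8 to 955.5 with a median of 147.1 in replicate 2. The best-scoring peak lay at a different place in each library. In replicate 1 it spanned 7161436 to 7165746 (4311 bp), and in replicate 2 it spanned 7152519 to 7156456 (3938 bp). Both stretches held peaks in both libraries, cut differently. Replicate 2 had peaks with scores of 333.04, 143.45 and 323.71 across the first, set apart by gaps of 26 bp and 66 bp. Replicate 1 had peaks with scores of 685.14 and 751.83 across the second, with a gap of 263 bp.

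**Figure D2:**
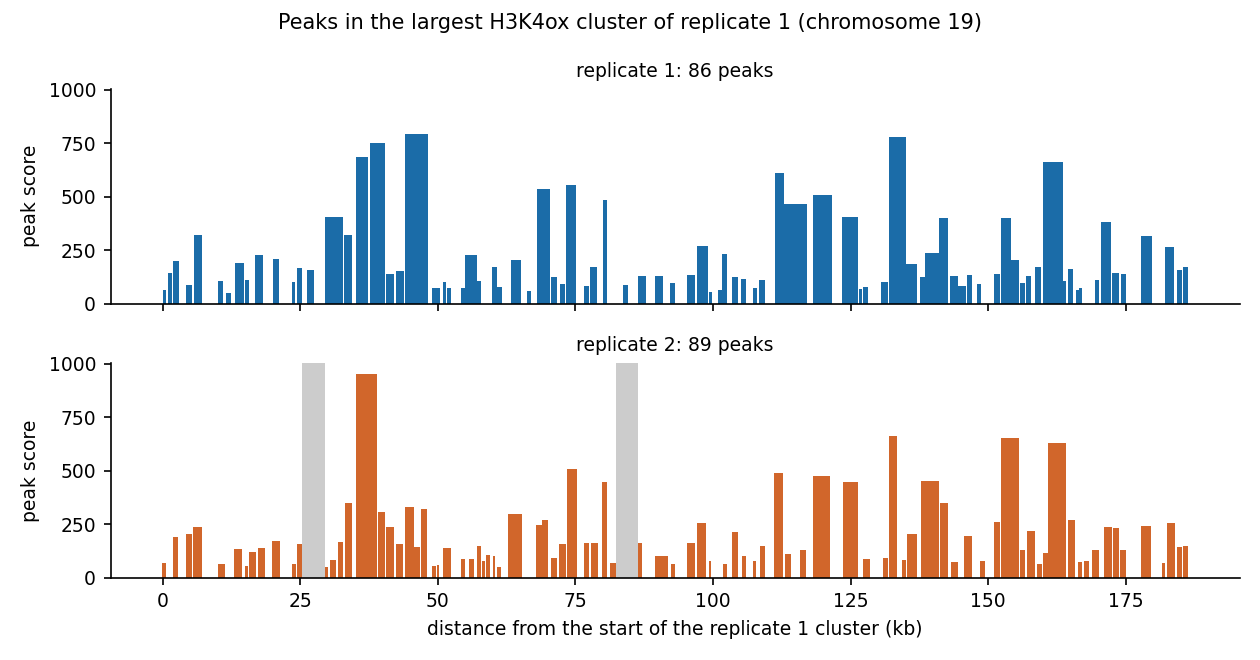
Each bar is a peak of the interval that holds the largest replicate 1 cluster, drawn to scale by distance from the start of that cluster in kb (x axis) and by the authors' score (y axis), for replicate 1 (above, 86 peaks) and replicate 2 (below, 89 peaks). Grey bands mark the gaps longer than 3 kb, of which replicate 1 had none and replicate 2 had 2.

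Chromosome 19 held 8 of the 10 clusters with the most peaks in replicate 1 and 6 of the 10 in replicate 2. The others lay on chromosome 12 in replicate 1, and on chromosomes 7, 12 and 20 in replicate 2. A domain on chromosome 12 was whole in both libraries, from 122022770 to 122191682 with 69 peaks in replicate 1 and from 122021206 to 122191597 with 70 peaks in replicate 2. The median score of its peaks was 210.5 in replicate 1 and 194.6 in replicate 2. A domain on chromosome 19 was also whole in both, from 14321305 to 14489858 with 61 peaks and from 14321343 to 14491293 with 65 peaks. That domain was densely filled, and its peaks covered 79.6% of the length in replicate 1 and 79.1% in replicate 2. On chromosome 20, replicate 2 had 68 peaks in 1 cluster from 50422951 to 50561936, where replicate 1 had 62 peaks in 2 clusters with a gap of 3.84 kb between them. On chromosome 7, from 6078820 to 6184949, replicate 2 had 47 peaks in 1 cluster where replicate 1 had 43 peaks, in 4 clusters with a largest gap of 5.475 kb.

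When overlapping clusters of both libraries were merged, the region with the highest mean number of peaks lay on chromosome 19 from 6477891 to 6684229, with 91 peaks in replicate 1 and 88 in replicate 2. It was made of 3 clusters of replicate 1 and 5 of replicate 2. The next region, on chromosome 19 from 7117335 to 7303883, had 86 and 89 peaks. The only such region on chromosome 1 among the first 10 spanned 28917460 to 29062080 and had 58 and 60 peaks in 4 and 3 clusters. Over the first 10 regions the libraries differed by at most 6 peaks. Peak numbers in these regions were therefore close, while the number of clusters they were cut into was the same in 2 of the 10.

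Peaks in clusters had higher scores than single peaks. The score is the authors' own value for each peak and comes with no stated unit, so differences and ranks are given and no ratios. In replicate 1 the median score was 89.4 in clusters and 74.9 among single peaks, and in replicate 2 it was 88.2 and 73.6. The difference of the medians was 14.4 in replicate 1 and 14.6 in replicate 2 (mean 14.5 ± 0.13, SD, n = 2). It was above 0 on each of the 22 autosomes in both libraries. In 58.1% ± 0.38 (SD, n = 2) of all pairs of a cluster peak and a single peak, the cluster peak had the higher score (57.9% and 58.4%). The distributions thus overlapped broadly.

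Width went along with score, since peaks in clusters were wider than single ones (medians of 880 bp against 781 bp in replicate 1, and 857 bp against 758 bp in replicate 2). When each list was divided into 10 groups of equal size by width, the cluster median was higher in the 9 narrower groups of both libraries, by 0.48 to 8.67 in replicate 1 and by 0.37 to 8.80 in replicate 2. The mean over these 9 groups was 2.997 and 2.86. At similar width, the score difference was thus much smaller than over all peaks. In the widest group the order was opposite. Among peaks of at least 1784 bp in replicate 1, the median score was 317.0 in clusters and 411.6 among single peaks, and among peaks of at least 1725 bp in replicate 2 it was 305.3 and 376.0.

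Scores were higher in clusters of many peaks. The median was 84.5 in pairs, 86.6 in clusters of 4 to 5 peaks, 107.4 in clusters of 10 to 19 peaks and 132.3 in clusters of 20 or more in replicate 1. In replicate 2 it was 84.2, 84.8, 104.6 and 129.4. Within clusters of at least 4 peaks (11103 in replicate 1 and 10691 in replicate 2), inner peaks were compared with the 2 end peaks of the same cluster. The mean inner score was the higher one in 55.2% of these clusters in replicate 1 and 53.5% in replicate 2, with a median difference of 6.41 and 4.33. Most clusters with more peaks have more inner than end peaks. Means of unequal numbers of skewed scores can differ in this way without any effect of position, so these values are descriptions. The top peak was an inner one in 64.2% and 62.9% of the clusters, where inner peaks made up a mean of 62.4% and 62.2% of a cluster's peaks. The top peak was thus inner about as often as the number of inner peaks alone gives.

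The scores of neighbouring peaks were more strongly correlated in rank at short gaps than at long ones. With gaps of at most 100 bp the Spearman correlation of neighbours' scores was 0.25 in replicate 1 (8854 pairs) and 0.27 in replicate 2 (8530 pairs). It was 0.09 in both libraries for gaps over 1000 bp up to 3000 bp, and 0.05 in both for gaps over 3000 bp up to 10000 bp. The higher score of a pair of neighbours had a median of 167.7 in replicate 1 and 164.3 in replicate 2 at gaps of at most 100 bp, and of 109.1 and 106.2 at gaps over 3000 bp up to 10000 bp. The lower score had medians of 77.8 and 75.8 at the shorter gaps, and of 63.5 and 62.9 at the longer ones. The medians of the lower and the higher score thus lay further apart at the shorter gaps. Neighbouring pairs share peaks, library and local coverage, so these correlations are descriptions.

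The share of peaks in clusters rose with score up to a point and then fell. In the lowest 10% of scores, 54.5% of peaks in replicate 1 and 54.1% in replicate 2 lay in clusters. Between score percentiles 90 and 95 the shares were 76.5% and 77.7%. Between percentiles 98 and 99, at scores from 587.1 to 753.4 in replicate 1 and from 532.4 to 703.0 in replicate 2, they were 49.4% and 51.3%. Above percentile 99 they were 50.4% and 49.5%, leaving out the top 248 and 243 peaks, of which 64.9% and 62.6% lay in clusters. The median distance to the nearest peak was 0.57 kb and 0.54 kb at percentiles 90 to 95, 0.74 kb and 0.52 kb at percentiles 95 to 98, and 3.13 kb and 2.77 kb at percentiles 98 to 99. Above percentile 98, and below the topmost peaks just named, about as many peaks were single as clustered.

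**Figure D3:**
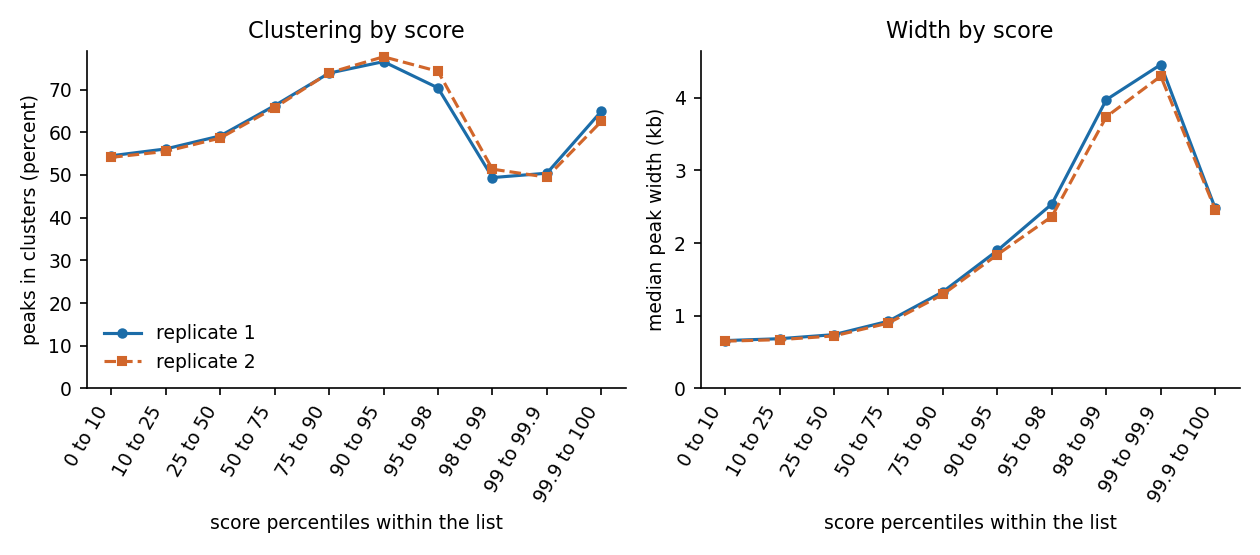
Left, share of peaks in clusters (percent, y axis) by score percentile within the list (x axis), and right, median peak width in kb for the same groups. Circles with solid lines are replicate 1 and squares with dashed lines are replicate 2. Clustering fell from 76.5% and 77.7% at percentiles 90 to 95 to 49.4% and 51.3% at percentiles 98 to 99, while the median width rose to 3973 bp and 3738 bp.

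The single peaks of that score range were wide. They numbered 2360 in replicate 1 and 2281 in replicate 2, and had median widths of 4304.5 bp and 4084 bp, against 4008 bp and 3774 bp for cluster peaks of the same range. At these scores the share in clusters was lowest among peaks of 4000 to 5000 bp, with 40.8% of 2065 peaks in replicate 1 and 40.9% of 1743 peaks in replicate 2. Among peaks of 2000 to 3000 bp it was 73.4% of 338 and 75.9% of 468. The share did not fall steadily with width. It was 60.7% and 51.5% among peaks under 2000 bp, and 53.3% and 53.6% among those of at least 5000 bp. At percentiles 90 to 98, 46.3% of 618 peaks of 4000 to 5000 bp lay in clusters in replicate 1, and 42.3% of 324 in replicate 2. Among peaks of 2000 to 3000 bp the shares there were 80.3% of 7866 and 81.5% of 7510. Among those of at least 5000 bp they were 63.4% and 57.9%. The share in clusters differed by width here, and the part of width in the low share was not tested. Each of the high-scoring single peaks (100%) overlapped a peak of the other library, as did all peaks of that score range, clustered ones included (100%). A single peak of the other library overlapped 49.4% of the high-scoring single peaks in replicate 1 and 56.0% in replicate 2. The rest overlapped only peaks in clusters of the other library. Whether such a cluster was a wide peak called in parts or held separate neighbours was not examined.

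The share of peaks in clusters differed among chromosomes. It was highest on chromosome 19, with 88.2% in replicate 1 and 88.4% in replicate 2, followed by chromosome 17 (80.8% and 80.1%) and chromosome 20 (75.2% and 74.8%). It was lowest on chromosome 13, with 38.8% and 39.8%. Chromosome 19 also had the shortest median gap, 1.26 kb in both libraries, against 11.2 kb and 11.4 kb on chromosome 13. A cluster on chromosome 19 held a mean of 5.61 and 5.60 peaks, and 74 of the 246 clusters of at least 20 peaks in replicate 1 and 85 of the 228 in replicate 2 lay there (30.1% and 37.3%), while the chromosome held 5.45% and 5.54% of the autosomal peaks. Chromosome 13 had no cluster of 10 or more peaks in either library. The libraries differed by less than 2 percentage points on each autosome.

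**Figure D4:**
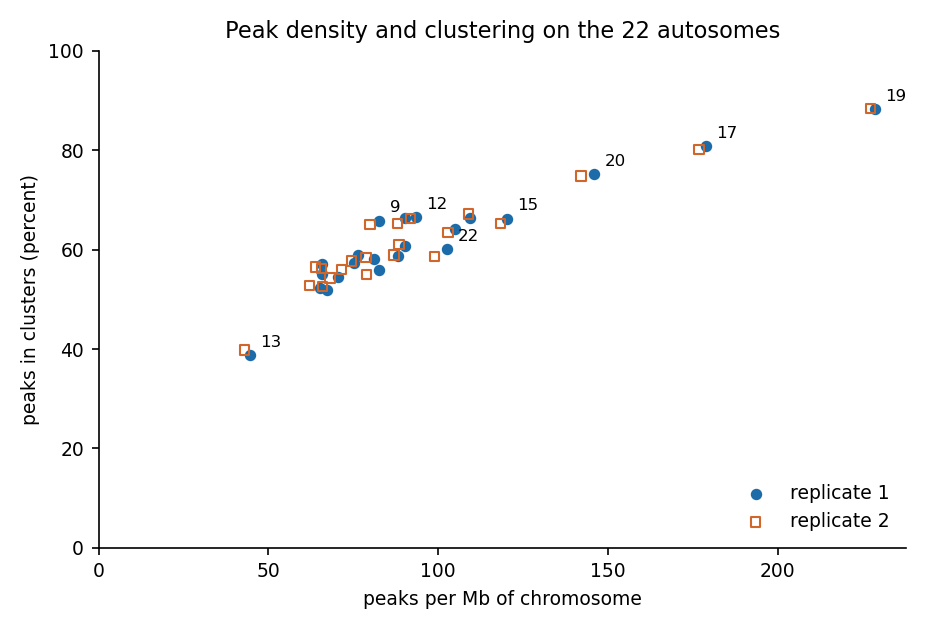
Share of peaks in clusters (percent, y axis) against peaks per Mb between the outermost peaks of each autosome (x axis), with filled circles for replicate 1, open squares for replicate 2 and some chromosomes named by number. Chromosome 19 lies highest at 88.2% and 88.4%, and chromosome 13 lowest at 38.8% and 39.8%.

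These shares followed the density of peaks. Across the 22 autosomes the Spearman correlation of peaks per Mb with the share in clusters was 0.91 in both libraries, given as a description since a denser chromosome has shorter gaps. The same was seen in windows of 1 Mb: with 25 to 49 peaks in the window, 36.3% of peaks in replicate 1 and 37.1% in replicate 2 lay in clusters, and with 300 or more, 95.4% in both. In windows of at least 150 peaks, chromosome 19 was near the other autosomes at matched density. In windows with at least 200 and under 250 peaks, 83.2% of peaks on chromosome 19 (11 windows) and 84.7% on other autosomes (108 windows) lay in clusters in replicate 1, and 83.5% (9 windows) and 84.5% (97 windows) in replicate 2. With 300 or more peaks the values were 96.3% (21 windows) and 94.05% (16 windows) in replicate 1, and 96.3% (21 windows) and 94.2% (15 windows) in replicate 2. Chromosome 19 held more of the densest windows than the other autosomes together. Over the 2662 windows with at least 20 peaks in both libraries, the share in clusters had a Spearman correlation of 0.86 between the libraries, and the median difference was 5.17 percentage points.

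How often clusters of one library were found in the other depended on the overlap asked for. Of the clusters of replicate 1, 32548 (67.2%) overlapped a cluster of replicate 2 by at least 1 bp, and of those of replicate 2, 32901 (68.7%) overlapped one of replicate 1 (mean 68.0% ± 1.1, SD, n = 2). With an overlap of at least 50% of both spans the shares were 47.7% and 48.3%. At 1 bp, a further 24.95% and 24.6% met single peaks but no cluster, and 7.87% and 6.72% met no peak at all. Of single peaks, 15.8% in replicate 1 and 17.1% in replicate 2 overlapped a cluster of the other library, 44.4% and 45.1% met a single peak but no cluster, and 39.9% and 37.8% met neither. The 188.2 Mb that lay in clusters of both libraries made up 63.7% of the cluster length of replicate 1, 66.6% of that of replicate 2 and 48.3% of the length covered by clusters of either.

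Agreement rose with the number of peaks in the cluster. Pairs overlapped a cluster of the other library in 54.0% of cases in replicate 1 and 55.6% in replicate 2, and clusters of 4 to 5 peaks in 89.8% and 91.1%. All 1396 clusters of at least 10 peaks in replicate 1 and all 1329 in replicate 2 met one. Long clusters meet others more easily, so the single base at the middle of each cluster was looked up as well. It lay in a cluster of the other library for 48.7% and 50.2% of pairs, 68.9% and 72.3% of clusters of 4 to 5 peaks, and 89.4% and 92.1% of clusters of 20 or more. The order by size was the same, with lower values in every class. Where peaks are dense, any base falls in a cluster of the other library more easily. Local density was not matched between the size classes, so the rise with size is a description.

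**Figure D5:**
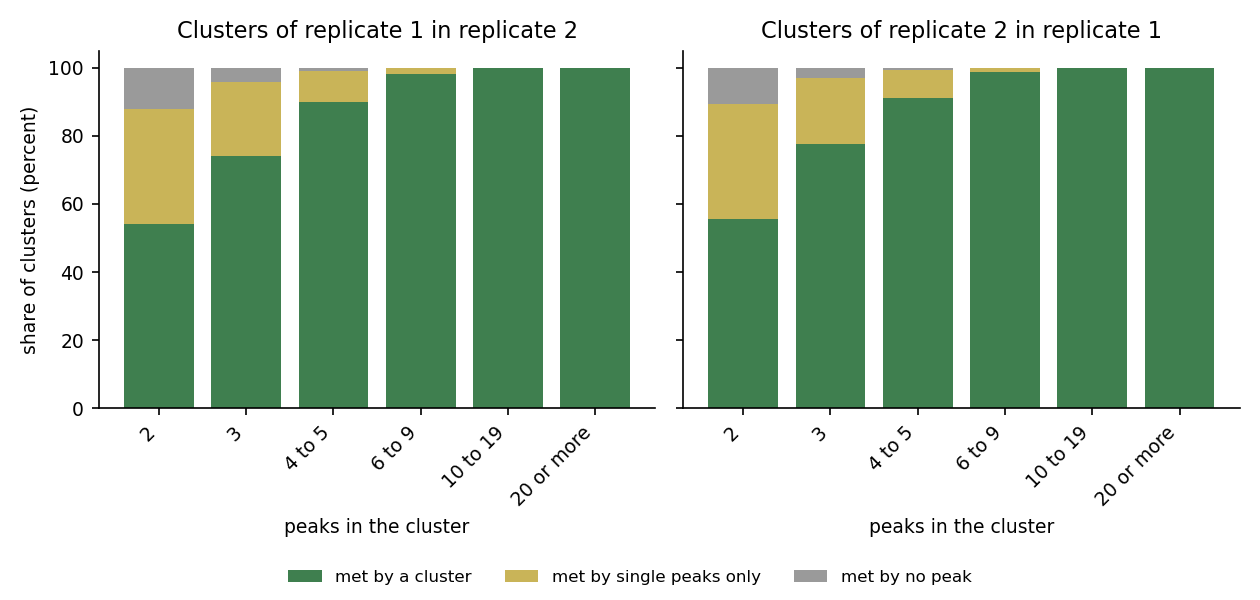
Stacked bars show, for clusters of each size (number of peaks, x axis), the percent that overlapped a cluster of the other library by at least 1 bp (green), only single peaks of it (yellow) or no peak of it (grey). Left are clusters of replicate 1 and right those of replicate 2; pairs met a cluster in 54.0% and 55.6%, and clusters of 10 or more peaks always did.

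The largest clusters without a counterpart were of modest size. In replicate 1 they had 8 peaks, as on chromosome 21 from 37798403 to 37816423, where replicate 2 had 3 peaks set apart by gaps of up to 6.96 kb. Another with 8 peaks, on chromosome 16 from 14706672 to 14720922, had a median score of 73.2 and met 3 peaks of replicate 2. In replicate 2 the largest had 9 peaks, on chromosome 4 from 42181726 to 42202614 (median score 79.1) and on chromosome 17 from 19450704 to 19468477 (median score 65.2), and replicate 1 had 3 and 2 peaks there. Each of the 10 largest such clusters, 5 per library, held 1 to 3 peaks of the other library.

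Matched clusters had ends near each other, which the matching itself favours, since they overlap, and peak numbers that often differed. A match was a merged region with exactly 1 cluster of each library. Clusters that were split in the other library or missing from it are therefore left out. A total of 27654 clusters matched 1 to 1, which was 57.1% of those of replicate 1 and 57.8% of those of replicate 2. Their starts lay at a median of 180 bp from each other and their ends at 205.5 bp. The number of peaks was equal in 49.3% of these matches and differed by at most 1 in 82.6%. Across the matched clusters, the Spearman correlation between libraries was 0.55 for the number of peaks and 0.62 for length. Clusters are not independent replicates, so no p is given.

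Neighbours that could be traced in both libraries had similar distances, which the tracing itself favours, since matched peaks overlap. Of the 108171 neighbouring peaks with gaps of at most 3 kb in replicate 1, 42416 pairs had both members matched 1 to 1 to a peak of replicate 2, and 42433 of 104891 pairs in replicate 2 had both matched. The partners were direct neighbours too for 94.6% and 94.0% of these pairs, and at most 3 kb apart for 97.7% and 98.4%. The centres of such neighbours lay at a median of 2216 bp and 2209 bp from each other, and this distance differed between the libraries by a median of 115 bp. Only about 4 in 10 pairs (39.2% and 40.5%) could be traced in this way, since at least 1 member of the others had no single partner.

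Low-scoring peaks were met by a peak of the other library more often in clusters than as single peaks, and high-scoring ones about equally often. When each list was divided into 10 groups of equal size by score, peaks of the lowest group were met in 44.2% of cases in clusters and 34.0% as single peaks in replicate 1, and in 48.6% and 37.2% in replicate 2. In group 7 the values were 79.9% and 74.2%, and 82.4% and 77.4%. In the highest group they were 99.87% and 99.91% in replicate 1, and 99.91% and 99.94% in replicate 2. Almost all peaks of that group were met, which leaves little room for a difference. Peaks in clusters lie where peaks are close together, and an overlap by 1 bp is met more easily there. Neither local density nor width was matched within the score groups.

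Compared with the other antibodies of the series, the H3K4ox peaks lay closer together over the full lists, which are also the longest. At the full length of the lists, 26.2% of 37895 autosomal H2A.Z peaks (95% Wilson interval 25.7 to 26.6, counting error only) and 46.4% of 105560 RUVBL2 peaks (46.1 to 46.7) lay in clusters, against 63.1% ± 0.13 for H3K4ox (SD, n = 2). With each list cut to its 37895 best-scoring peaks, the shares were 34.9% and 37.1% for H3K4ox, 34.1% for RUVBL2 and 26.2% for H2A.Z. The median gap was then 25.891 kb and 25.047 kb for H3K4ox, 26.776 kb for RUVBL2 and 25.187 kb for H2A.Z. A cluster held a mean of 2.327 and 2.301 peaks for H3K4ox, 2.276 for RUVBL2 and 2.369 for H2A.Z. At this length H2A.Z thus had the lowest share in clusters, but a median gap between those of the H3K4ox libraries and more peaks per cluster. At the length of the RUVBL2 list, 48.9% and 49.7% of H3K4ox peaks lay in clusters. Lists of equal length held unlike score ranges. At 37895 peaks the lowest score was 189.16 and 183.3 for H3K4ox, 90.17 for RUVBL2 and 50 for H2A.Z. At the length of the RUVBL2 list it was 93.34 and 90.09 for H3K4ox and 50 for RUVBL2. The shares of H3K4ox and RUVBL2 were therefore near each other at equal length, with RUVBL2 below both H3K4ox libraries each time. H2A.Z and RUVBL2 had 1 list each, and an exact permutation test of 2 libraries against 1 cannot give a two-sided p below 0.333, so none of these differences was tested.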

How the data were processed

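Peaks of each library were used as deposited by the authors, with 1 list per library and no pooling, per the file headers. The peak names carry the name of the caller MACS, and the header lines name an input, with no version or settings. Of the build hg19 and the tools Bowtie and TopHat, the submitters' processing notes give the names alone. The score of each peak was deposited by the authors; no source used here states its unit, and the lowest was 50 in both lists. The headers also hold the word multilocus, which no source used here explains.

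Peaks on chromosomes 1 to 22 were chained where the gap was at most 3 kb; a cluster had at least 2 peaks. Overlap meant at least 1 bp. Width and score groups were of equal size, with ties in list order. The calculations used scipy 1.17.1, pandas 2.3.3 and numpy 2.4.6 under Python 3.11.15, with plots by matplotlib 3.10.9, and were tested on simulated data with known clusters. Depth was unknown. The peaks, the limit of 3 kb and the comparisons were chosen with earlier results of these data known. Sites were named by rule: the 10 clusters with the most peaks per library, the 10 merged regions with the highest mean, the 5 largest clusters per library that met no cluster, and the 3 longest gaps; the text gives part of these. No genome or annotation of hg19 was used here, so sites carry positions and no gene names or sequences. Other settings tried are given in the closing section.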

Additional observations from a re-analysis of the deposited data

Results flagged for a closer look

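Chromosome X was outside the description above and is given here because it carried peaks in clusters in both libraries. Of its 4223 peaks in replicate 1, 46.8% lay in clusters (95% Wilson interval 45.3 to 48.3), and of its 4161 peaks in replicate 2, 49.03% did (47.5 to 50.5); the intervals cover counting error only. Over its whole length chromosome X had 27.2 and 26.9 peaks per Mb. Autosomal windows of 1 Mb with 25 to 49 peaks held 36.3% and 37.1% of their peaks in clusters, and on the autosomes other than chromosome 19 such windows ranged from 20.6% to 51.6% and from 20.7% to 53.0% between their 10th and 90th percentiles. The values of chromosome X lay within those ranges, and a mean over a chromosome is not matched to single windows. Its clusters were small, with at most 5 peaks, and pairs made up 84.5% and 82.7% of them. The median score was 158.6 in clusters and 84.2 among single peaks in replicate 1, and 149.8 and 82.0 in replicate 2, and cluster peaks were wider there too (medians of 1360.5 bp against 870 bp, and 1283.5 bp against 826 bp). The difference between chromosome X and the autosomes was not tested.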

How the results depend on the processing

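The main values are means of both libraries: 63.1% of peaks in clusters, a median cluster length of 4242 bp, 3.21 peaks per cluster, a median score higher by 14.5 in clusters, and 68.0% of clusters met by a cluster of the other library. In the same order, a maximum gap of 1 kb gave 37.7%, 2874 bp, 2.45, 20.005 and 57.9%; 10 kb gave 87.5%, 10608.5 bp, 5.64, 10.85 and 78.1%; and 3 kb between centres gave 53.1%, 3567 bp, 2.78, 11.2 and 63.0%. The upper 50% by score gave 51.4%, 4423 bp, 2.79, 23.3 and 63.7%, and at least 3 peaks a cluster gave 40.7%, 7148 bp, 4.81, 16.9 and 64.6%. Joining neighbours within 100 bp, chosen after seeing the data, gave 60.8%, 4315.5 bp, 3.13, 13.7 and 66.6%. Requiring 50% of both spans lowered the last value to 48.0%. Lists of equal length moved the share in clusters to 62.9% and the score difference to 14.7, and all chromosomes moved them to 62.9% and 14.85. Results were counted as moved when they shifted by more than the SD of the 2 libraries, which is small. By that measure, leaving out peaks within 1 Mb of stretches of at least 1 Mb without peaks moved none of the 5 values. Leaving out either replicate gives the value of the other; for the agreement between clusters this has no value. The score difference stayed above 0 under every setting tried. No paired analysis was possible because the 2 libraries are the only group described. Depth was unknown, and the lists do not show whether gaps over 3 kb held signal under the score limit of 50.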
